A study of Mus musculus with 6 samples.

Results

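The interstitial matrix is the fibrous material that fibroblasts lay down around themselves, and 46 genes that code for its collagens, proteoglycans and glycoproteins are described here in a mouse fibroblast line. They were listed by the known role of their products in 6 role groups, and each was followed through its probe set (short probes that together read 1 transcript), or, for the 15 genes with several, the one that was brightest on average over the arrays. Of the 46 genes, 37 had a probe set assigned to that gene alone, among 12488 probe sets and 8251 named genes on the array, and 28 of the 37 were bright enough to be tested. The genes with no such probe set were Col5a3, Fbn1, Fbln5, Efemp2, Prelp, Aspn, Comp, Spp1 and Thbs1. The genes too dim to be tested were Col2a1, Col11a1, Col14a1, Col15a1, Fbn2, Mfap2, Lum, Fmod and Ecm1, with signals between 1.7 and 65.3.

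The cells were NIH3T3 fibroblasts, an immortalised mouse line, grown in DMEM with 10% FCS. In every group the oncogenes c-myc and Ha-ras, which transform fibroblasts together, sat behind a Tet-off promoter that doxycycline silences. The IRF-1hER fusion was also made at all times in every group, a protein in which the transcription factor IRF-1 becomes active when estradiol binds it. The estradiol group had no doxycycline and received estradiol (labelled 1 mM) over 48 h, so that oncogenes and IRF-1 were both active by design. The withdrawal group had neither agent, so that only the oncogenes were on by design. The doxycycline group received 2 µg/ml doxycycline, so that the oncogenes were off by design. Effects of doxycycline or estradiol themselves cannot be told apart from those of the oncogenes or IRF-1. Each group had 2 arrays, of which replicate 1 used RNA extracted with RNeasy and replicate 2 RNA extracted with TRIzol. Doxycycline replicate 2 is titled as having had estradiol too, but only doxycycline stands in its treatment label, by which it was grouped. All arrays came from 1 engineered line. Nothing in the labels tells whether the replicates grew as separate cultures, so a p-value here covers the spread among these 6 arrays and no more, and that spread may be technical.

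Fibroblasts secrete collagen chains as soluble precursors, which fold into triple helices, are trimmed outside the cell and assemble into fibrils. Small leucine-rich proteoglycans such as decorin bind those fibrils and govern their diameter, while glycoproteins such as fibronectin, tenascin and the thrombospondins link the matrix to cell surface receptors or modulate adhesion. Lower production of collagen and fibronectin is a classical property of fibroblasts transformed by oncogenes in culture. IRF-1 is a transcription factor of the interferon response that restrains growth.

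Values are MAS5 signals, the brightness of a probe set on a linear scale with no unit, and fold changes are differences of log2(signal + 32), which understates changes of dim genes. A signal reports RNA per array, so that fewer cells making a transcript and less transcript per cell cannot be told apart. Of the 10 fibroblast markers all had a probe set and 8 were bright enough to test, with Vim between 5.9 and 40.7 and Fap between 1.0 and 13.2 too dim. The summed signal of the fibroblast markers was 9859.0 and 6313.7 in the estradiol group, 9887.1 and 9909.0 in the withdrawal group and 11766.7 and 9094.2 in the doxycycline group. Endothelial, adipocyte and chondrocyte marker lists summed to at most 98.2 on any array, and the epithelial, macrophage and skeletal muscle lists to at most 271.5. The ratio of 3' to 5' actin probe sets, a check of RNA integrity, was 1.14 and 1.16 in the estradiol group, 1.12 and 1.07 in the withdrawal group and 1.05 and 1.04 in the doxycycline group. The same ratio for Gapdh was 0.75 and 0.88 in the estradiol group, 0.74 and 0.92 in the withdrawal group and 0.83 and 0.80 in the doxycycline group. The actin ratio was highest in the estradiol group, where the matrix signals were lowest, and the Gapdh ratio was highest on withdrawal replicate 2, where they were high. The part of either ratio in the results was not tested.

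The withdrawal arrays did not resemble each other, and this touches every comparison that uses them. Withdrawal replicate 1 was almost the same as estradiol replicate 1: 0 of the 28 tested matrix genes differed at least 2-fold between these arrays, as against 16 of the 7453 probe sets tested (0.215%). The median absolute difference of the 28 genes was 0.06 on the log2 scale. Withdrawal replicates 1 and 2 differed at least 2-fold in 12 of the 28 genes, against 12.3% of all probe sets. Withdrawal replicate 2 was nearer to the doxycycline mean than to the estradiol mean in 24 of 28 genes (85.7%, against 55.2% of all probe sets), and withdrawal replicate 1 in 3 of 28 (10.7%, against 31.3%). Array by array, the median deviation of the 28 genes from each gene's own mean was -0.33 and -0.51 in the estradiol group, -0.32 and 0.31 in the withdrawal group and 0.51 and 0.22 in the doxycycline group. The matrix genes therefore ran low on both estradiol arrays and on withdrawal replicate 1, and high on withdrawal replicate 2 and both doxycycline arrays. The labels do not settle whether a withdrawal array was exchanged with another or whether withdrawal took full effect in each sample. Neither was tested, and withdrawal values below are those of the arrays as labelled.

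**Figure D1:**
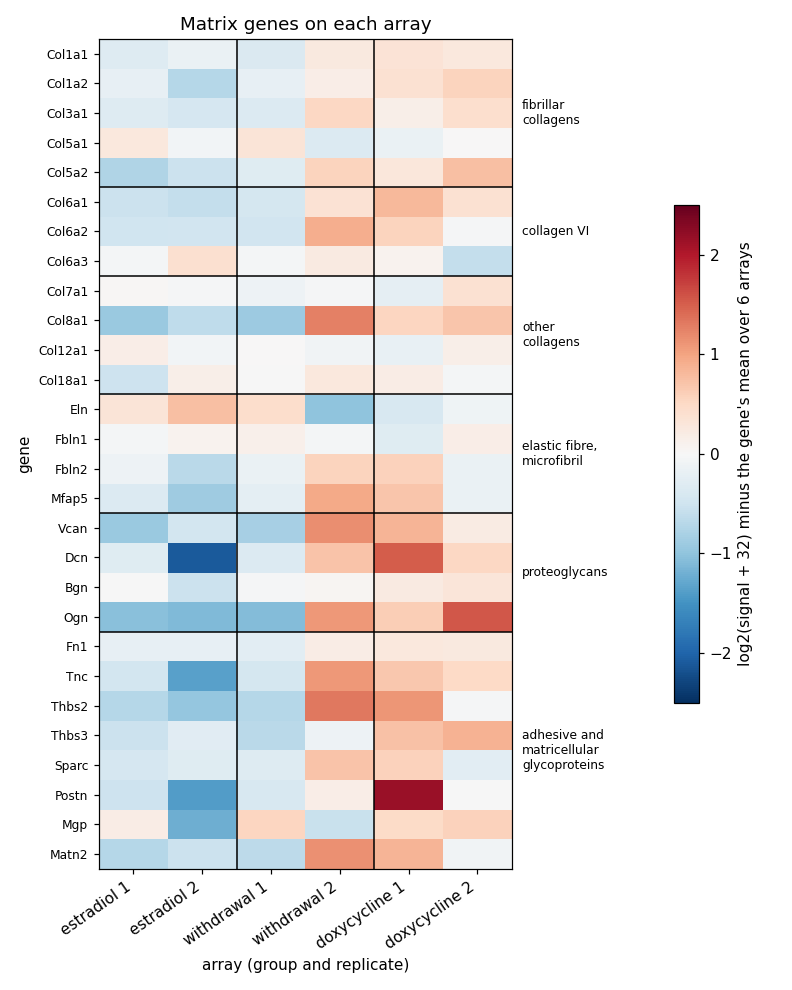
Each row is 1 of the 28 tested matrix genes, grouped by role, and each column is 1 array. Colour gives log2(signal + 32) minus the gene's mean over the 6 arrays, from blue (lower) to red (higher). The estradiol columns and withdrawal 1 are mostly blue, and withdrawal 2 and the doxycycline columns mostly red, with Eln, Col5a1 and Col6a3 among the genes that break the pattern.

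The comparison of cells with oncogenes and IRF-1 active against cells with the oncogenes off was the one in which the median lay well below 0 within both replicate numbers. In the estradiol group 23 of the 28 tested genes were lower than in the doxycycline group, with a median log2 fold change of -0.82 and a range of -2.21 to 0.79. The median was -0.85 within replicate 1 and -0.70 within replicate 2, and 21 of the 28 were lower in both. Over all probe sets tested 49.6% were lower and the median was 0.00. No gene passed limma's test at an adjusted p of 0.05, as 0% of all probe sets did, and the smallest adjusted p of a matrix gene was 0.255. At an unadjusted p under 0.05, 9 matrix genes were lower and 0 higher, where 5.66% of all probe sets were lower and 8.31% higher. Groups that did not overlap gave 20 of 28 matrix genes lower and 1 higher, against 24.7% of all probe sets lower and 27.0% higher. Counting the dim genes as well, 26 of 37 were lower, with a median of -0.54.

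The calls depended on which arrays entered the fit. A fit to the estradiol and doxycycline arrays alone, chosen after seeing the data, leaves out the discordant withdrawal arrays. It called 132 probe sets (1.77% of those tested), 44 lower and 88 higher, and among them 2 matrix genes, Col8a1 with an adjusted p of 0.0431 and Ogn with 0.0286. In that fit 18 of the 28 matrix genes had an unadjusted p under 0.05, as had 20.2% of all probe sets. Fits that leave out 1 withdrawal array are nearly the same test. The withdrawal array that stays has a group mean of its own and adds no spread, so these fits add no separate support. Without doxycycline replicate 1, none of the probe sets that passed was a matrix gene.

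Withdrawal against doxycycline compares oncogenes on with oncogenes off by design, and doxycycline itself differs as well. In the withdrawal group 22 of the 28 genes were lower than in the doxycycline group, against 48.2% of all probe sets tested. The median of the 28 was -0.25, but it was -0.72 within replicate 1 and 0.03 within replicate 2. The smallest adjusted p was 0.925, and 0% of all probe sets passed. At an unadjusted p under 0.05, 1 gene was lower, Thbs3, and 0 were higher, where 2.31% of all probe sets were lower and 2.07% higher. Groups that did not overlap gave 6 genes lower and 0 higher, against 15.0% and 16.8% of all probe sets. Without withdrawal replicate 1, 14 of the 28 genes were lower. Without doxycycline replicate 1, 26 probe sets passed, none of them a matrix gene.

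Estradiol against withdrawal compares IRF-1 active with IRF-1 inactive by design, in cells with the oncogenes on, and estradiol itself differs as well. In the estradiol group 23 of 28 genes were lower than in the withdrawal group, against 49.0% of all probe sets tested. The median of the 28 was -0.51. This came from replicate 2, with a median of -0.95, and replicate 1 gave -0.01, the pair of arrays that hardly differed. The smallest adjusted p was 1.00 and 0% of all probe sets passed. At an unadjusted p under 0.05, 1 matrix gene was lower, Tnc, and 0 were higher, where 0.362% of all probe sets were lower and 0.335% higher. Without withdrawal replicate 2 the number of lower genes was 18. Without withdrawal replicate 1, 17 probe sets passed, with Col8a1 among them.

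All 4 arrays without doxycycline were also set against the doxycycline arrays, which they share with the comparisons above. Again 23 of 28 genes were lower in the doxycycline-free cells, against 49.3% of all probe sets tested. The median of the 28 was -0.44, or -0.77 within replicate 1 and -0.24 within replicate 2. The smallest adjusted p was 0.354 and 0% of all probe sets passed. At an unadjusted p under 0.05, 7 genes were lower and 0 higher, where 5.22% of all probe sets were lower and 7.14% higher. Every doxycycline-free array lay below both doxycycline arrays for 6 genes, namely Col1a1, Col1a2, Col6a1, Bgn, Fn1 and Thbs3, and none lay above. Over all probe sets tested, 11.3% were lower and 13.4% higher in this way. This holds for the brightest probe set of each gene. A dimmer Col1a1 probe set went the other way without overlap, and the dimmer probe sets of Col1a2, Col6a1 and Bgn overlapped. Without withdrawal replicate 2, 23 of the 28 genes were lower. The withdrawal array then left was almost the same as estradiol replicate 1, so the doxycycline-free arrays were not all separate readings. Without doxycycline replicate 1, none of the probe sets that passed was a matrix gene.

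**Figure D2:**
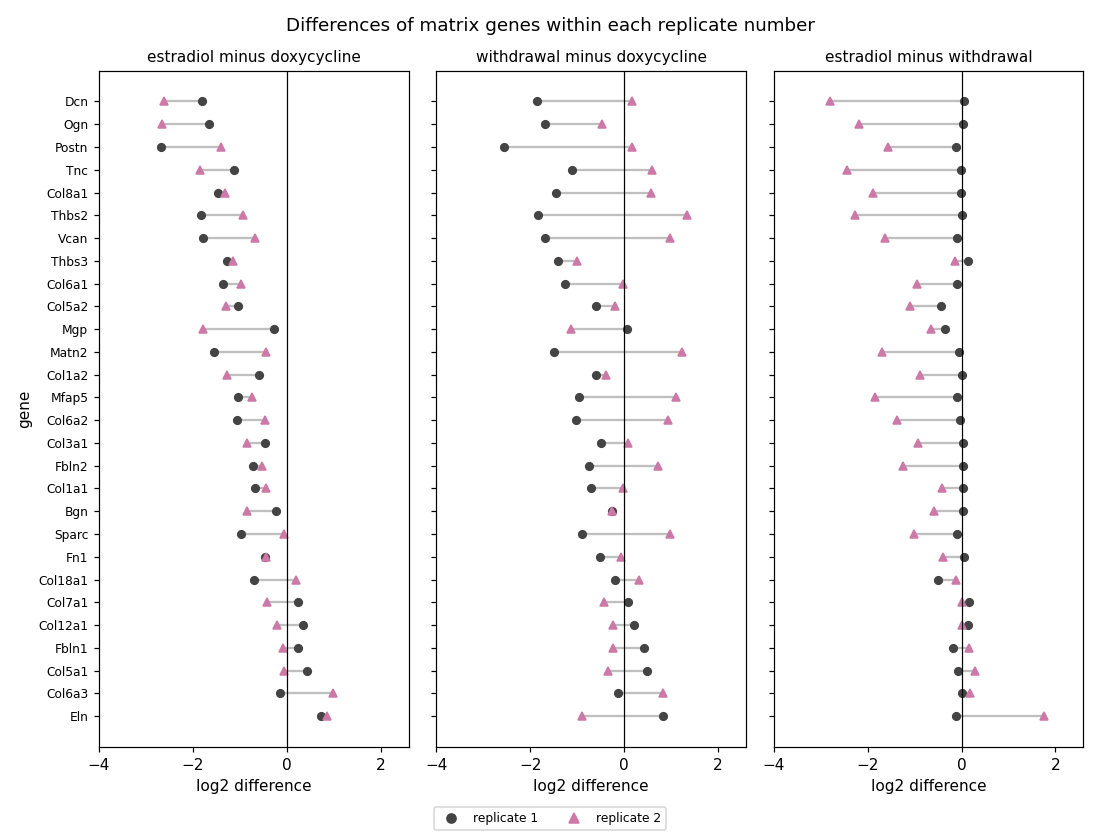
Log2 differences of the 28 tested matrix genes within replicate 1 (circles) and replicate 2 (triangles), for estradiol minus doxycycline, withdrawal minus doxycycline and estradiol minus withdrawal. In the left panel 21 genes lie below 0 in both replicates. In the middle panel the circles lie mostly below 0 and the triangles around it, and in the right panel the circles lie close to 0.

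Ogn and Col8a1 passed limma's test at an adjusted p of 0.05 in the fit to the estradiol and doxycycline arrays alone. That fit, chosen after seeing the data, called 1.77% of all probe sets tested. Thbs3 was the matrix gene with an unadjusted p under 0.05 between withdrawal and doxycycline, and Tnc the one between estradiol and withdrawal. Thbs3 codes for thrombospondin 3, a calcium-binding glycoprotein of connective tissue. Its signals were 81.9 and 104.3 in the estradiol group, 72.2 and 119.2 in the withdrawal group and 243.5 and 269.6 in the doxycycline group. All 4 doxycycline-free arrays lay below both doxycycline arrays, and both withdrawal arrays of Thbs3 lay close to the estradiol arrays. Its log2 fold change against doxycycline was -1.21 for estradiol (SE 0.28, adjusted p = 0.255), -1.20 for withdrawal (SE 0.28, adjusted p = 0.925) and -1.20 for both together (SE 0.24, adjusted p = 0.354). Without withdrawal replicate 2 the value for both together was -1.34.

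Ogn codes for osteoglycin, or mimecan, a small leucine-rich proteoglycan that binds collagen fibrils. Its signals were 224.0 and 214.4 in the estradiol group, 220.0 and 1087.9 in the withdrawal group and 778.6 and 1523.0 in the doxycycline group. The estradiol arrays were low and close together, and the withdrawal arrays lay on opposite sides. The log2 fold change for estradiol against doxycycline was -2.16 (SE 0.63, adjusted p = 0.257), the mean of -1.66 in replicate 1 and -2.66 in replicate 2. A further Ogn probe set gave -2.14, from signals of 117.6 and 153.7 in the estradiol group and 681.8 and 719.6 in the doxycycline group. The fold change of the withdrawal group against doxycycline was -1.08 (SE 0.63, adjusted p = 0.925), and that of both doxycycline-free groups -1.62. The withdrawal value rested on single arrays, at 0.00 without withdrawal replicate 1 but -2.16 if withdrawal replicate 2 was left out. Leaving out doxycycline replicate 2 gave -0.61. Leaving out either withdrawal array did not change the -2.16 for estradiol against doxycycline, which uses no withdrawal array. Without withdrawal replicate 2 both groups together gave -2.16.

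Col8a1 codes for a chain of collagen VIII, a short-chain, network-forming collagen of vessel walls and the cornea. Its signals were 232.5 and 290.5 in the estradiol group, 234.0 and 1165.6 in the withdrawal group and 697.3 and 774.1 in the doxycycline group. Both estradiol arrays lay well below both doxycycline arrays, and withdrawal replicate 2 was the highest array of all. The log2 fold change for estradiol against doxycycline was -1.39 (SE 0.60, adjusted p = 0.352), the mean of -1.46 in replicate 1 and -1.32 in replicate 2. Leaving out either withdrawal array did not change the -1.39, which uses no withdrawal array. Estradiol against withdrawal gave -0.95. That value was -2.04 without withdrawal replicate 1 and 0.13 without withdrawal replicate 2, so its direction was set by 1 array. For both doxycycline-free groups it was -0.92, or -0.37 without withdrawal replicate 1 and -1.46 without withdrawal replicate 2.

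Tnc codes for tenascin C, a glycoprotein that modulates cell adhesion. Its signals were 223.9 and 105.4 in the estradiol group, 225.0 and 713.2 in the withdrawal group and 524.3 and 460.2 in the doxycycline group. The estradiol arrays lay below both doxycycline arrays and withdrawal replicate 2 was the highest array. The log2 fold change for estradiol against doxycycline was -1.48 (SE 0.51, adjusted p = 0.290), the mean of -1.12 in replicate 1 and -1.84 in replicate 2. For estradiol against withdrawal it was -1.22 (SE 0.51, adjusted p = 1.00), the mean of -0.01 in replicate 1 and -2.44 in replicate 2. This value became -1.99 without withdrawal replicate 1 and -0.45 if withdrawal replicate 2 was left out, and leaving out estradiol replicate 2 gave -0.77. For both doxycycline-free groups it was -0.87, or -0.49 without withdrawal replicate 1. A second, much dimmer Tnc probe set gave -0.28 for estradiol against doxycycline.

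Start regions are printed for these 4 genes only. Dcn, Col6a1, Col5a2, Postn and Col1a2 also had an unadjusted p under 0.05 in limma's test of estradiol against doxycycline, and are left out. Of the 4, Ogn and Col8a1 were called in the fit to the estradiol and doxycycline arrays alone. With all arrays fitted, Thbs3 was the matrix gene with an unadjusted p under 0.05 between withdrawal and doxycycline. Tnc was the one between estradiol and withdrawal. The windows run from 250 bases before to 50 after the gene's start, 300 bases each, from RefSeq on GRCm38.p6, and lie at chr3:89214930-89215229 on the plus strand for Thbs3, chr13:49607765-49608064 on the plus strand for Ogn, chr16:57754688-57754987 on the minus strand for Col8a1 and chr4:64046966-64047265 on the minus strand for Tnc, where the first of 2 listed starts is shown. Capitals mark matches, on either strand, to 5 short motifs: the E-box CACGTG that Myc proteins bind, the AP-1 motif TGANTCA, the IRF half-site motif AANNGAAA, the TATA box TATAAA and the CCAAT box. Positions are counted from 1 at the 5' end of the window.
Thbs3: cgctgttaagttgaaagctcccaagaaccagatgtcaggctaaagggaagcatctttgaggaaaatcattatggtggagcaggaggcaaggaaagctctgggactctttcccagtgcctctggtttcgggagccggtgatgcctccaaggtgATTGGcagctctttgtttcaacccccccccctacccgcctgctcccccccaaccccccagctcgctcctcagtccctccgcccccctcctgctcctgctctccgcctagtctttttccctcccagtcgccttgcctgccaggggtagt
Ogn: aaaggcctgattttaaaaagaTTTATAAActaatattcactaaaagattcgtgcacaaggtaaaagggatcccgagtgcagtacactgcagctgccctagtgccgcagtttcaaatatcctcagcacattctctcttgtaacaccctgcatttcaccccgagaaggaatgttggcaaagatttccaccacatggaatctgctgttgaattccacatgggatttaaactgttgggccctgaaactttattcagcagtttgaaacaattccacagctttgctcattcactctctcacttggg
Col8a1: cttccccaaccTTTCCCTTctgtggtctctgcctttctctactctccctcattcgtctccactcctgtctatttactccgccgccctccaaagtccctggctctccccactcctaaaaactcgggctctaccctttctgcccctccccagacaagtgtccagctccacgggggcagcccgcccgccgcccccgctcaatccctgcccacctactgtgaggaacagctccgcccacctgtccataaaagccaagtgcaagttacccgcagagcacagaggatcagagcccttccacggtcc
Tnc: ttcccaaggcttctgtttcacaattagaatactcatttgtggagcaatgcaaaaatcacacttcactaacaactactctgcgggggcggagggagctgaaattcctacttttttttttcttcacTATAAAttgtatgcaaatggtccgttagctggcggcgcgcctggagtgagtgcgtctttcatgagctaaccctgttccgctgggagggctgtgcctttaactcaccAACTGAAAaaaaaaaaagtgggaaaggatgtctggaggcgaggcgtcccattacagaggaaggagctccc

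The Thbs3 window held a CCAAT box on the opposite strand from position 153. The Ogn window held TATA matches on both strands, from positions 22 and 24, which overlap each other. The Col8a1 window held an IRF match on the opposite strand from position 12, and the Tnc window held an IRF match from position 231 and a TATA box from position 125. Of the 28 tested matrix genes 19 had a window in the RefSeq table. Of those, 4 held the IRF letters (Col6a1, Col6a3, Col8a1 and Tnc), as did 23.9% of all 32851 windows, and 4 held a TATA box (Col3a1, Ogn, Thbs2 and Tnc), against 13.6% of all windows. A CCAAT box was in 7 of the 19, against 37.4% of all windows, the E-box in 1 (Fbln1) against 7.15%, and the AP-1 motif in 1 (Col6a1) against 7.81%. A match describes letters only.

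Of the fibrillar collagens, which form the load-bearing fibrils of connective tissue, 8 were listed, 7 had a probe set and 5 were tested. For estradiol against doxycycline 4 of the 5 were lower, with a median of -0.66. Col1a2, the alpha-2 chain of type I collagen, had 5438.8 and 3806.5 in the estradiol group, 5436.0 and 7070.7 in the withdrawal group and 8208.1 and 9197.1 in the doxycycline group. Every doxycycline-free array was below both doxycycline arrays. The log2 fold change was -0.93 for estradiol against doxycycline (SE 0.30, adjusted p = 0.276), the mean of -0.59 in replicate 1 and -1.27 in replicate 2, and -0.71 for both doxycycline-free groups (SE 0.26, adjusted p = 0.368). A dimmer Col1a2 probe set gave 0.07 for estradiol against doxycycline, so the probe sets disagreed.

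Col1a1, the other chain of type I collagen, had 4304.7 and 4801.1 in the estradiol group, 4211.0 and 6427.1 in the withdrawal group and 6870.6 and 6527.2 in the doxycycline group. The doxycycline arrays were again the highest, by a narrow margin over withdrawal replicate 2. Estradiol against doxycycline gave -0.56 (SE 0.30, adjusted p = 0.431 in limma's test), and a dimmer Col1a1 probe set went the other way with 0.27. That probe set had 916.2 and 1123.5 in the estradiol group, 906.3 and 1299.2 in the withdrawal group and 871.8 and 806.5 in the doxycycline group. Its doxycycline arrays were thus the lowest, so the probe sets disagreed. Col5a2, a chain of the type V collagen that regulates fibril assembly, had 1301.9 and 1507.2 in the estradiol group, 1771.5 and 3247.1 in the withdrawal group and 2709.0 and 3737.4 in the doxycycline group. Estradiol and doxycycline did not overlap, and the fold change was -1.17 (SE 0.36, adjusted p = 0.267), the mean of -1.04 in replicate 1 and -1.29 in replicate 2. For both doxycycline-free groups together Col5a2 gave -0.78. Of the others, Col3a1 gave -0.66 and Col5a1 gave 0.18, with Col5a1 groups that overlapped. A dimmer Col5a1 probe set gave -0.24, also with overlap, and dimmer Col3a1 probe sets gave -0.31 and -0.40.

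Collagen VI forms beaded microfibrils that anchor cells to the interstitial matrix, and its 3 listed chains were all tested. Col6a1 had 931.5 and 894.8 in the estradiol group, 999.2 and 1768.3 in the withdrawal group and 2431.7 and 1795.5 in the doxycycline group. Its doxycycline arrays were the highest, although withdrawal replicate 2 came close to the lower of them. The fold change was -1.17 for estradiol against doxycycline (SE 0.34, adjusted p = 0.257), the mean of -1.35 in replicate 1 and -0.98 in replicate 2, and -0.90 for both doxycycline-free groups. A second probe set gave -0.76 for estradiol against doxycycline. Col6a2, which assembles with it, also gave -0.76, with groups that did not overlap. Col6a3, the longest chain, went the other way, with 2022.1 and 2766.7 in the estradiol group, 2020.2 and 2448.8 in the withdrawal group and 2230.3 and 1370.5 in the doxycycline group. Its groups overlapped, and the fold change of 0.43 (SE 0.34, adjusted p = 0.601) was -0.14 in replicate 1 and 1.00 in replicate 2. Leaving out 1 array moved it between 0.08, without doxycycline replicate 2, and 0.77, without doxycycline replicate 1, with 0.65 without estradiol replicate 1 and 0.21 without estradiol replicate 2.

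Of the 6 other collagens, 4 were tested, and besides Col8a1 their brightest probe sets lay between -0.25 and 0.07 for estradiol against doxycycline. Col18a1, whose product carries the fragment endostatin, had 65.3 and 121.9 in the estradiol group, 106.5 and 134.8 in the withdrawal group and 126.1 and 102.3 in the doxycycline group. These groups overlapped, with a fold change of -0.25 for estradiol against doxycycline (SE 0.30, adjusted p = 0.739). It was 0.18 when the gene's probe sets were averaged, 0.08 without estradiol replicate 1, -0.58 without estradiol replicate 2 and -0.13 without doxycycline replicate 1. Col7a1, of the anchoring fibrils under epithelia, gave -0.09, and Col12a1, which associates with type I fibrils, gave 0.07. A second Col12a1 probe set, about as dim, gave -0.46, with groups that did not overlap.

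Of the 9 elastic fibre and microfibril genes, 6 had a probe set and 4 were tested, 2 lower and 2 higher in the estradiol group than in the doxycycline group. Eln, the elastin that gives tissue its recoil, had 142.1 and 202.4 in the estradiol group, 155.7 and 37.6 in the withdrawal group and 73.5 and 97.8 in the doxycycline group. By the brightest probe set of each gene, Eln was the 1 tested matrix gene whose estradiol arrays both lay above both doxycycline arrays. Its fold change was 0.79 (SE 0.44, adjusted p = 0.450 in limma's test), and 0.72 and 0.85 within the replicates. The second, dimmer Eln probe set gave -0.30. Dimmer probe sets of Col1a1 and Col18a1 also lay higher without overlap, at 0.27 and 0.60. Withdrawal replicate 2 was the lowest array for Eln and, of the other 27 tested genes, for Col5a1, while it was the highest array for 10.

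Fbln2, a glycoprotein that binds elastin and fibronectin, had 1526.5 and 1034.6 in the estradiol group, 1503.2 and 2485.5 in the withdrawal group and 2530.7 and 1498.3 in the doxycycline group. These groups overlapped, and the fold change for estradiol against doxycycline was -0.62 (SE 0.39, adjusted p = 0.499). It was -0.25 without doxycycline replicate 1, -0.99 without doxycycline replicate 2 and -0.35 without estradiol replicate 2. Mfap5, a microfibril-associated glycoprotein, was dim, with 25.3 and 7.0 in the estradiol group, 29.0 and 108.2 in the withdrawal group and 86.0 and 32.8 in the doxycycline group. It gave -0.89 for estradiol against doxycycline (SE 0.45, adjusted p = 0.412) and -0.97 for estradiol against withdrawal. The first value was -0.46 without doxycycline replicate 1, and the second was -1.57 without withdrawal replicate 1 and -0.37 without withdrawal replicate 2. Another Mfap5 probe set, about as dim, gave -0.32 for estradiol against doxycycline and -0.12 for estradiol against withdrawal. Fbln1 gave 0.08 for estradiol against doxycycline. A second Fbln1 probe set of similar brightness gave -0.54, with groups that did not overlap, so the probe sets disagreed.

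The proteoglycans were the role group with the largest median difference between estradiol and doxycycline, -1.69, and all 4 tested genes of the 8 listed were lower in both replicate numbers. Dcn codes for decorin, the small proteoglycan that coats collagen fibrils. Its signals were 302.5 and 64.5 in the estradiol group, 290.7 and 638.0 in the withdrawal group and 1136.5 and 560.2 in the doxycycline group. Estradiol and doxycycline did not overlap, but the arrays within each group differed widely. Dcn had the lowest fold change of the 28, -2.21 for estradiol against doxycycline (SE 0.62, adjusted p = 0.257), the mean of -1.80 in replicate 1 and -2.62 in replicate 2. Without estradiol replicate 2 it was -1.31. For both doxycycline-free groups together Dcn gave -1.53.

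Vcan codes for versican, a large hyaluronan-binding proteoglycan. Its signals were 274.3 and 389.7 in the estradiol group, 295.2 and 1276.0 in the withdrawal group and 1019.0 and 636.7 in the doxycycline group. Estradiol lay below doxycycline without overlap, and the fold change was -1.22 (SE 0.59, adjusted p = 0.389), the mean of -1.78 in replicate 1 and -0.67 in replicate 2. Estradiol against withdrawal gave -0.86, or -1.86 without withdrawal replicate 1 and 0.14 without withdrawal replicate 2. Bgn, the biglycan that resembles decorin, had 7083.3 and 4885.9 in the estradiol group, 6929.3 and 7338.4 in the withdrawal group and 8339.8 and 8750.9 in the doxycycline group. The 4 doxycycline-free arrays all lay below the doxycycline arrays, with a modest fold change of -0.54 for estradiol (SE 0.28, adjusted p = 0.429), or -0.27 without estradiol replicate 2.

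**Figure D3:**
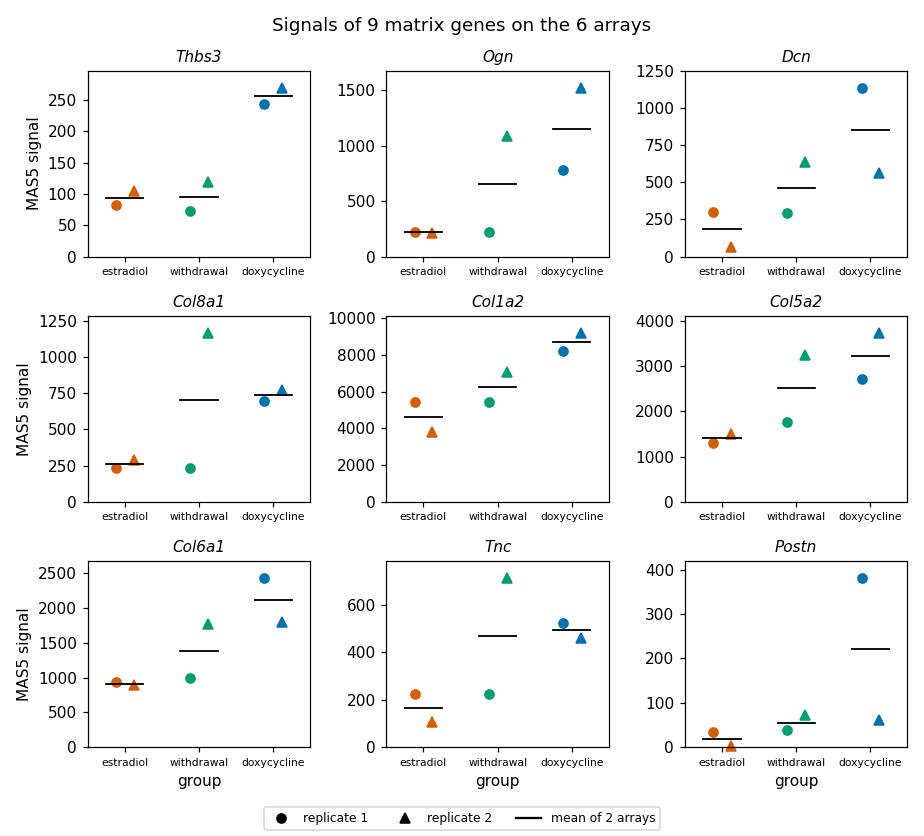
MAS5 signals of 9 matrix genes, the 9 with an unadjusted p under 0.05 between estradiol and doxycycline, on a linear axis from 0 in the estradiol, withdrawal and doxycycline groups. Circles are replicate 1, triangles replicate 2 and the bar is the mean of 2 arrays. Both estradiol points lie below both doxycycline points in every panel, and the withdrawal points are spread between them or beyond.

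Of the 12 adhesive and matricellular glycoproteins, which bind cells or modulate their adhesion, 9 had a probe set and 8 were tested. All 8 were lower in the estradiol group than in the doxycycline group, in both replicate numbers and without overlap, with a median of -1.12. Over all 7453 probe sets, 2306 were lower in both replicate numbers and 24.7% were lower without overlap. Besides Thbs3 and Tnc, Postn codes for periostin, which helps collagen cross-linking. It had 32.9 and 3.0 in the estradiol group, 38.0 and 71.6 in the withdrawal group and 380.9 and 59.9 in the doxycycline group. Doxycycline replicate 1 was far above the other 5 arrays. The fold change was -2.03 for estradiol against doxycycline (SE 0.64, adjusted p = 0.273), the mean of -2.67 in replicate 1 and -1.39 in replicate 2, -0.84 for estradiol against withdrawal and -1.61 for both doxycycline-free groups. Without doxycycline replicate 1 the first was -0.95 and the last -0.53, and without doxycycline replicate 2 they were -3.12 and -2.70. Estradiol against withdrawal was -1.28 without estradiol replicate 1, -0.39 without estradiol replicate 2 and -0.55 without withdrawal replicate 2.

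Thbs2, thrombospondin 2, a glycoprotein that inhibits angiogenesis, had 405.7 and 337.0 in the estradiol group, 405.6 and 1752.5 in the withdrawal group and 1521.5 and 668.1 in the doxycycline group. Its highest array was withdrawal replicate 2, and the fold change for estradiol against doxycycline was -1.38 (SE 0.63, adjusted p = 0.376), or -0.80 without doxycycline replicate 1. Mgp, the matrix Gla protein that inhibits calcification, had 434.5 and 143.7 in the estradiol group, 563.0 and 244.0 in the withdrawal group and 534.2 and 575.7 in the doxycycline group. Its replicate 2 estradiol and withdrawal arrays were the low ones, so the -1.03 for estradiol against doxycycline (SE 0.51, adjusted p = 0.396) was -0.28 in replicate 1 and -1.79 in replicate 2. Leaving out an estradiol array gave -1.74 without estradiol replicate 1 and -0.33 without estradiol replicate 2.

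Matn2, the filament-forming matrilin 2, had 279.4 and 317.5 in the estradiol group, 291.1 and 1098.3 in the withdrawal group and 880.8 and 445.9 in the doxycycline group. It gave -1.00 for estradiol against doxycycline (SE 0.56, adjusted p = 0.451), or -0.53 without doxycycline replicate 1. Estradiol against withdrawal gave -0.87, or -1.78 without withdrawal replicate 1 and 0.03 without withdrawal replicate 2. Sparc, the collagen-binding glycoprotein osteonectin, had 610.8 and 660.5 in the estradiol group, 651.9 and 1370.9 in the withdrawal group and 1238.4 and 684.0 in the doxycycline group. The lower doxycycline array barely cleared the estradiol arrays, and the fold change was -0.52 (SE 0.42, adjusted p = 0.617), or -0.10 without doxycycline replicate 1 and -0.93 without doxycycline replicate 2. Fn1, fibronectin, was added after its values were seen because of its classical link to transformation. Its signals were 719.5 and 716.0 in the estradiol group, 688.4 and 950.2 in the withdrawal group and 1001.0 and 989.8 in the doxycycline group, with a fold change of -0.45 for estradiol against doxycycline (SE 0.28, adjusted p = 0.496).

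**Figure D4:**
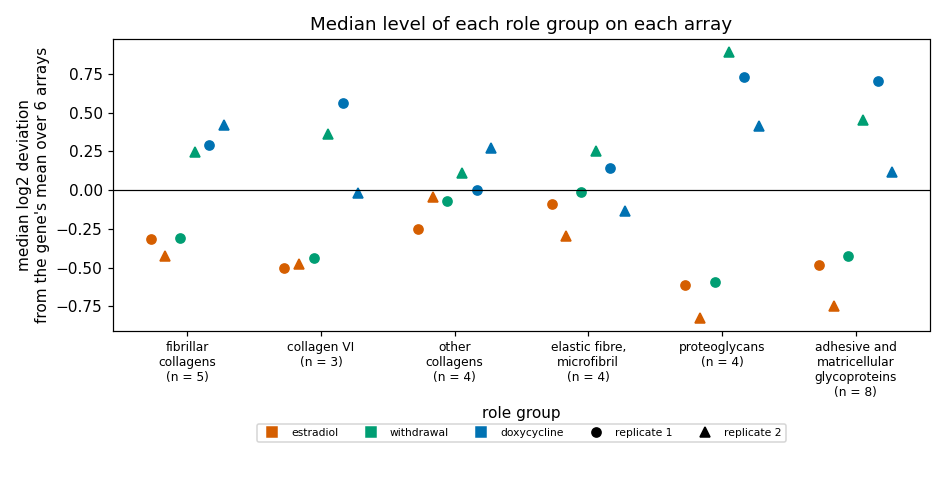
Median log2 deviation from each gene's mean over 6 arrays for the 6 role groups, with 1 point per array. Colours give estradiol, withdrawal and doxycycline, circles replicate 1 and triangles replicate 2. In the proteoglycans the estradiol arrays lie at -0.61 and -0.82, the withdrawal arrays at -0.59 and 0.89 and the doxycycline arrays at 0.73 and 0.41.

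Genes that process, cut or bind the matrix were read beside the members, for estradiol against doxycycline. No list had a gene at an adjusted p under 0.05. The counts here and in the next paragraph stand beside 49.6% of all probe sets tested that were lower. At an unadjusted p under 0.05 in limma's test, 5.66% of all probe sets were lower and 8.31% higher. Of 12 tested collagen processing genes 9 were lower, with a median of -0.32. Lox, the lysyl oxidase that cross-links collagen, had 1118.2 and 780.7 in the estradiol group, 1152.8 and 3975.5 in the withdrawal group and 3907.4 and 2139.4 in the doxycycline group, the same arrangement of arrays as in most matrix genes, with a fold change of -1.60. Bmp1, the protease that trims procollagen, gave -0.77, and these were the 2 processing genes with an unadjusted p under 0.05. Serpinh1, the collagen chaperone HSP47, gave -0.50, and Pcolce, which enhances procollagen trimming, gave -0.27.

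All 8 tested matrix turnover genes were lower, with a median of -0.72. Among them Mmp14, a membrane-bound collagenase, gave -1.80, Timp2 and Timp3, inhibitors of such proteases, gave -1.65 and -1.46, and the plasminogen activator Plat gave -0.74, each with an unadjusted p under 0.05. Of 12 tested genes of the TGF-beta axis, the main inducer of matrix genes in fibroblasts, 8 were lower, with a median of -0.38, and those with an unadjusted p under 0.05 were the ligand Tgfb3 at -0.95 and the co-receptor Tgfbr3 at -0.99. Of 10 tested basement membrane genes 8 were lower, with a median of -0.41, and the laminin chain Lama4 gave -0.87 and the nidogen Nid2 -1.53. Both were near background in the estradiol group, with signals of 9.1 and 11.6 for Lama4 and 20.0 and 2.6 for Nid2. Nid2 was also low in the withdrawal group, at 20.8 and 11.1. It passed the filter through its doxycycline signals of 84.8 and 95.8. The 11 tested matrix receptors were split, 5 higher and 6 lower, with the hyaluronan receptor Cd44 at 0.81 and the collagen receptor Ddr1 at -1.01. Of the 8 tested fibroblast markers 6 were lower and 2 higher, with a median of -0.20. The growth factor receptor Pdgfra at -2.18 and the transcription factor Prrx1 at -1.55 were the 2 with an unadjusted p under 0.05, while Cd34 gave 0.08 and Twist1 0.24. The part of these markers in the matrix values was not tested.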

How the data were processed

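Gene expression was measured on 6 1-colour Affymetrix arrays. The authors' deposited values are MAS5 intensities, per the submitters' processing notes. The MAS5 version and parameters were not given in the sources used here. Array medians lay between 49.7 and 52.65. Gene names came from GEO's platform annotation, where 10833 probe sets had 1 symbol, 396 several and 1193 none, and no genome build is named in the files.

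Arrays were scaled to a common mean trimmed by 2% at each end (factors 0.9999685 to 1.000063) and taken as log2(signal + 32). Left out were 66 control probe sets and the dimmest 40% by mean log2 signal (under a signal near 29.0). The 7453 others were fitted in limma 3.58.1 (R 4.3.3) with 1 mean per group over all 6 arrays and an intensity trend (3 residual and 5.23 prior degrees of freedom), two-sided, with Benjamini-Hochberg adjustment over all of them at 0.05. The scripts were tested on simulated data.

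The 46 members and all lists were chosen with earlier results of these data known. Signals are given for the 2 brightest members of each role group, members with a log2 fold change of at least 0.8 and 1 sign in both replicate numbers, and members with an unadjusted p under 0.05, 21 in all. The replicate number marks the extraction method in the labels, and differences within a replicate number set the arrays side by side on that ground. Deviations from group means correlated at -0.00727 between doxycycline and withdrawal, -0.0284 between doxycycline and estradiol and 0.449 between withdrawal and estradiol. The doxycycline arrays thus shared no deviation by replicate number with the others. The 0.449 lies between groups whose replicate 1 arrays hardly differed. Alternatives were other pseudocounts, no filter, quantile normalization, averaged probe sets, no trend, a replicate block and leaving out each array.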

Additional observations from a re-analysis of the deposited data

How the results depend on the processing

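With 2 arrays per group, precision is set by the number of arrays, and dim genes are closest to the background. Other pseudocounts, quantile normalization, no trend and the replicate block called 0 probe sets in all 4 comparisons. With the block, 10 matrix genes had an unadjusted p under 0.05 for estradiol against doxycycline, against 9 without it, and no call was altered. The block cannot move a fold change or a median such as the -0.82, since each replicate number holds 1 array of each group.

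Without the filter, matrix genes higher numbered 11 of 37 for estradiol against doxycycline, 10 for withdrawal against doxycycline, 12 for estradiol against withdrawal and 10 for both doxycycline-free groups. The estradiol against doxycycline median was -0.54 without the filter, -0.68 with log2(signal + 64) and -0.61 with averaged probe sets, which left 3 genes higher and turned Col18a1 to 0.18. The 4-array fit chosen after seeing the data called 132 probe sets.

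Leaving out 1 array at a time, probe sets called ranged from 0 to 133 for estradiol against doxycycline, 0 to 26 for withdrawal against doxycycline, 0 to 17 for estradiol against withdrawal and 0 to 180 for both groups. For estradiol against doxycycline and for both groups the highest count came without withdrawal replicate 2. It came without withdrawal replicate 1 for estradiol against withdrawal, and without doxycycline replicate 1 for withdrawal against doxycycline. Each such fit leaves 1 array in a group, so its spread comes from the other groups alone. The numbers of matrix genes higher ranged from 3 to 6, 5 to 14, 5 to 10 and 5 to 7 in the same order. The medians ranged from -0.96 to -0.55, -0.64 to 0.00, -0.91 to -0.07 and -0.67 to -0.27. Col18a1 for estradiol against doxycycline ranged from -0.58 without estradiol replicate 2 to 0.079 without estradiol replicate 1. Estradiol against withdrawal ranged from -2.04 without withdrawal replicate 1 to 0.13 without withdrawal replicate 2 for Col8a1, from -1.86 to 0.14 for Vcan and from -1.78 to 0.030 for Matn2. The causes were not tested.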
